A study of Mus musculus with 6 samples.

Results

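The genes described here encode the subunits of the proteasome and the proteins that activate, inhibit, assemble and regulate it, measured in sinusoidal endothelial cells of the mouse liver by RNA sequencing of whole cell preparations. They were the rows of the deposited gene table whose symbol is a Psma, Psmb, Psmc, Psmd, Psme, Psmf or Psmg gene, without pseudogenes, together with Pomp, Nfe2l1 and Adrm1. This gave 53 of 22298 genes, of which 52 had enough counts to be tested among 13096 tested genes. Psmb11, a core subunit known from thymic epithelium, was not tested, with between 0 and 11 counts in a library. Of the 48 genes that the table places in the KEGG proteasome pathway, 44 were among the 53, and the other 4 were Gm21972, Gm9774, Ifng and Sem1.

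Wild-type animals gave 6 libraries in 2 groups of 3. Those titled control are numbered 1, 2 and 3, and those titled aging are numbered 2, 3 and 5. The age labels run against these titles: the control libraries carry an age of 24 months and the aging libraries an age of 8 weeks. Title and age label cannot be reconciled from these sources, so every difference below is that of the libraries titled aging relative to those titled control, and no direction with age is drawn. No treatment is named, and the sources used here do not give the strain, the sex, the isolation method or how libraries map to mice. If libraries shared animals, the p-values would measure only the spread between these libraries.

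Libraries held between 15999220 and 17871220 counts, of which the 53 genes took between 0.272% and 0.305%. All 11 markers of sinusoidal endothelium, including Stab2, Lyve1 and Clec4g, were detected and none passed the test. Their summed level was 27288 to 33654 CPM (counts scaled to the size of the library) in control and 27478 to 30942 CPM in aging libraries. Single markers differed more than the sum. Lyve1 was at 551 to 662 CPM in control and at 244, 67.7 and 462 CPM in aging replicates 2, 3 and 5 (edgeR adjusted p = 0.207). Oit3 and Kdr were also lower without overlap, and Clec4g and Gpr182 higher, where 38.0% of all tested genes did not overlap. Markers of neutrophils summed to between 222 and 482 CPM in control and between 1543 and 4291 CPM in aging libraries, and 6 of the 9 passed the test as higher in aging. Of the other lists, 2 of 7 B and plasma cell and 1 of 8 T and NK cell markers were higher, 3 of 8 hepatocyte, 3 of 7 stellate cell and 1 of 5 tested dendritic cell markers were lower, and none of 10 macrophage markers passed. No listed marker was at 0 in all libraries. In bulk RNA, a change in the number of cells of a type and a change in RNA per cell cannot be told apart, and the part of these other cells in the results below was not tested.

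The proteasome is the main protease for proteins tagged with ubiquitin in the cytosol and nucleus. Its barrel-shaped 20S core is built from rings of alpha and beta subunits, and the beta subunits Psmb5, Psmb6 and Psmb7 carry the active sites. The 19S cap binds tagged proteins, removes the ubiquitin and feeds the unfolded chain into the core by means of a ring of ATPases. Under interferon, cells replace the active subunits by Psmb8, Psmb9 and Psmb10 to make the immunoproteasome, which alters the peptides offered on MHC class I molecules. When proteasome activity is limiting, the transcription factor NRF1, the product of Nfe2l1, escapes degradation and activates the subunit genes together.

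Few proteasome genes differed between the groups. In edgeR's quasi-likelihood test, with Benjamini-Hochberg adjustment over all 13096 genes and a threshold of 0.05, 2 of the 52 tested proteasome genes (3.85%) changed, against 12.8% of all genes tested. None was higher in aging, where 7.22% of all genes were, and 2 were lower, the lid subunit Psmd3 and the inhibitor Psmf1, where 5.59% of all genes were. Without adjustment, 6 of the 52 had p under 0.05 (11.5%), against 31.3% of all genes. DESeq2 called 2 of 53 (3.77%), against 16.3% of 14056 genes.

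Differences of proteasome genes were small and measured tightly. The median absolute log2 fold change was 0.09 over the 52 genes and 0.23 over all tested genes, and the median standard error was 0.09 and 0.15 in turn. For 45 of the 52 (86.5%), the 95% interval of the difference lay within 1.5-fold in either direction, which held for 48.0% of all tested genes. The 52 genes and all tested genes were not matched for level, with medians of 32.3 and 9.15 FPKM. All 14 constitutive core subunits and all 18 cap subunits that the symbol rule takes were among the 45. The medians of log2 fold change were -0.07 for the core, -0.03 for the cap and -0.08 for the 3 immunoproteasome subunits, beside -0.03 for all 52 proteasome genes and -0.01 for all tested genes. Values of the 3 control and the 3 aging libraries did not overlap for 11 of the 52 (21.2%), against 38.0% of all tested genes. Of these, 8 were lower in aging (15.4%, against 18.8% of all genes) and 3 were higher (5.77%, against 19.2%).

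**Figure D1:**
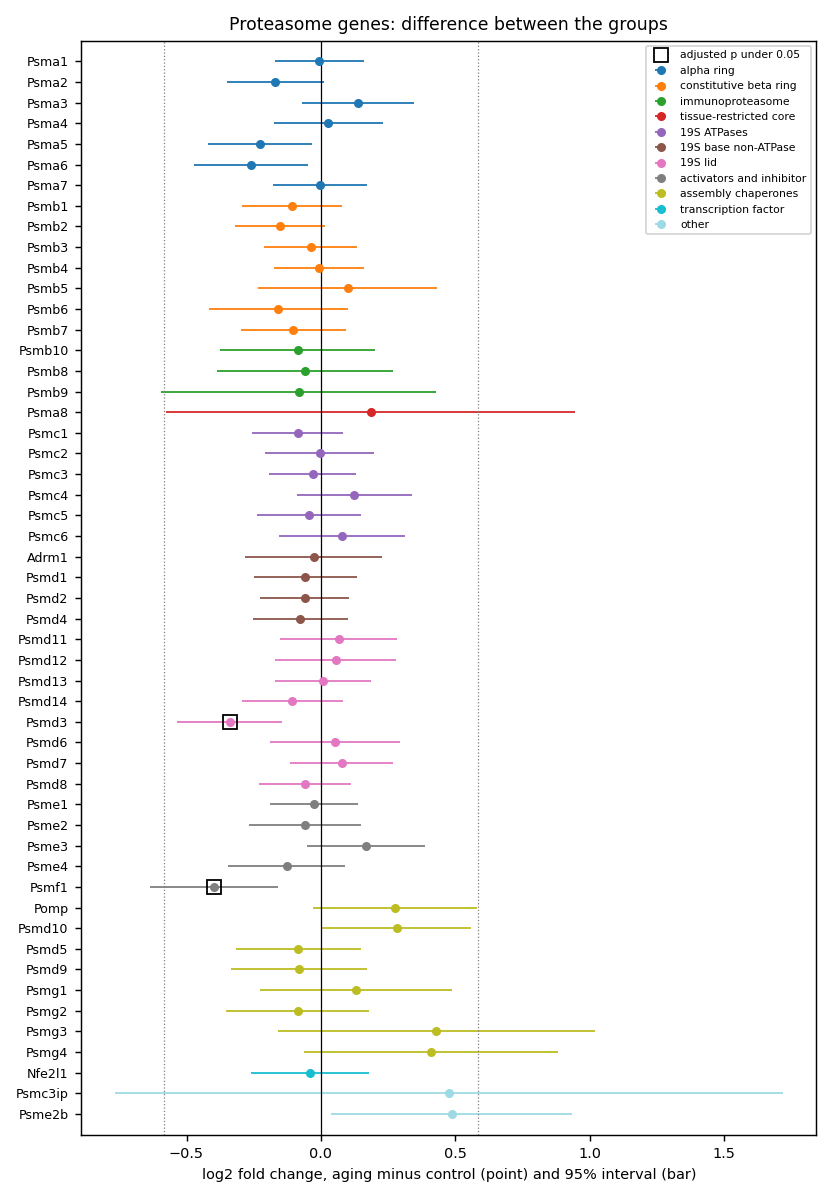
Log2 fold change of aging relative to control for each tested proteasome gene, grouped by role, with 95% intervals from the edgeR fit. Psmd3 and Psmf1 are the genes past the threshold, and the intervals widen among the assembly chaperones and the 2 genes set apart as other.

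Levels between genes were compared in FPKM, which is per transcript length. Averaged over the 6 libraries, the 14 core subunits ranged from 24.6 FPKM for Psmb5 to 65.5 FPKM for Psma6, with a median of 49.3 FPKM. The 18 cap subunits ranged from 20.7 FPKM for Psmd11 to 55.8 FPKM for Psmc1, with a median of 32.5 FPKM. The median over all tested genes was 9.15 FPKM. Psmb8 and Psmb10 lay within the range of the core subunits, at 48.7 and 32.3 FPKM, and Psmb9 lay below it at 19.96 FPKM. The 8 assembly chaperones had a median of 8.22 FPKM, with Pomp the highest among them at 59.2 FPKM. Psme1, at 82.7 FPKM, and Nfe2l1, at 83.9 FPKM, stood above every core and cap subunit. Psma8, a core subunit known from the testis, reached 2.73 FPKM.

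**Figure D2:**
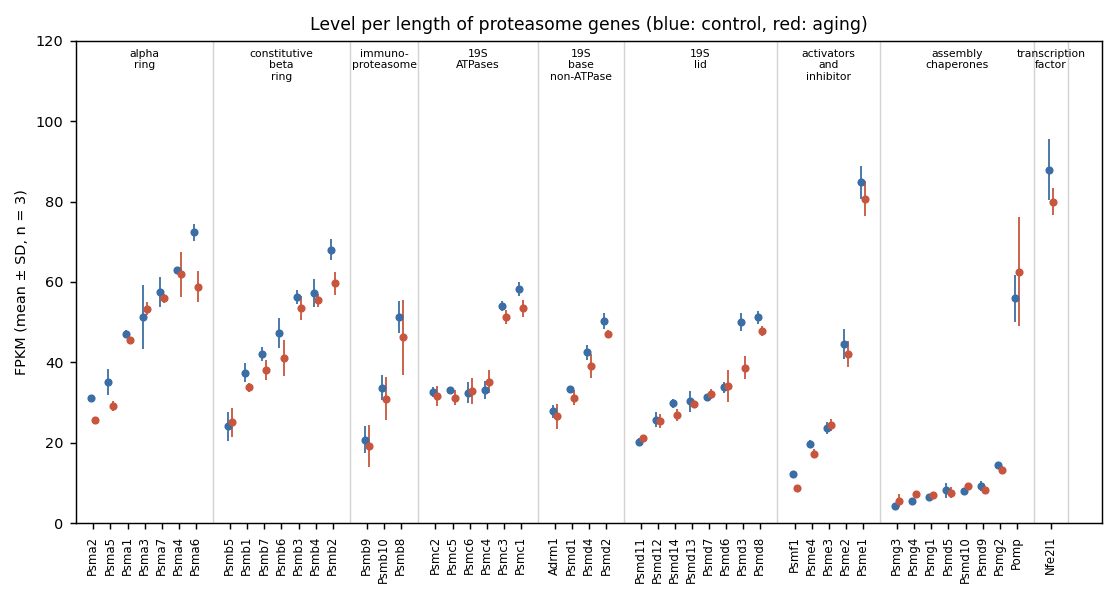
FPKM (mean ± SD of 3 libraries; blue control, red aging) of the proteasome genes, grouped by role, without Psma8, Psmb11, Psme2b and Psmc3ip. Core and cap subunits lie above 20 FPKM in both groups, the assembly chaperones other than Pomp below 15 FPKM, and Psme1 and Nfe2l1 stand highest.

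The promoters of catalytic subunits are shown because these genes exchange places in the constitutive and the immunoproteasome. Of the 6, Psmb7 had no entry in the RefSeq table. For the others, the promoters on the chromosomes given here are printed. They run from 250 bases before the RefSeq start to 50 bases after it, on the gene's own strand, in GRCm38.p6: Psmb5 at chr14:54617946-54618245 (minus strand), Psmb6 at chr11:70525107-70525406 (plus), Psmb8 at chr17:34197945-34198244 (plus), Psmb9 at chr17:34187281-34187580 (minus) and Psmb10 at chr8:105938343-105938642 (minus). Capitals mark the antioxidant response element core TGACNNNGC, the kind of site that NRF1 and its relative NRF2 bind with small MAF partners, in Psmb5 and Psmb6. In Psmb8 they mark the gamma-activated site TTCNNNGAA, an element known from interferon-responsive promoters.
Psmb5: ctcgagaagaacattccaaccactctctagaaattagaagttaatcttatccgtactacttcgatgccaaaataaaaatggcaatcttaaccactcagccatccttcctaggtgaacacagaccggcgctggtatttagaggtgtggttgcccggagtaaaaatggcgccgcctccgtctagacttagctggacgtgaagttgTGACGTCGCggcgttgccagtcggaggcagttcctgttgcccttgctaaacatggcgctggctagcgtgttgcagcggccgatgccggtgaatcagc
Psmb6: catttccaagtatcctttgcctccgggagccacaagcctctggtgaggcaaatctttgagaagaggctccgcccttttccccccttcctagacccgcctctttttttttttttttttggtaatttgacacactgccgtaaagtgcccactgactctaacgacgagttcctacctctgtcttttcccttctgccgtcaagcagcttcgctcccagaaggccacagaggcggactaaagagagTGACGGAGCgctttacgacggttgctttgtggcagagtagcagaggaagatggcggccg
Psmb8: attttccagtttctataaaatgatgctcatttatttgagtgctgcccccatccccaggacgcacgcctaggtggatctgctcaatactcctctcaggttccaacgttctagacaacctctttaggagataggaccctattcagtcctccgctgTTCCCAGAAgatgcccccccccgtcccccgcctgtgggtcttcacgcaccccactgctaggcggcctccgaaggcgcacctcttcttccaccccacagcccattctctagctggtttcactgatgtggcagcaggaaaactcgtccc
Psmb9: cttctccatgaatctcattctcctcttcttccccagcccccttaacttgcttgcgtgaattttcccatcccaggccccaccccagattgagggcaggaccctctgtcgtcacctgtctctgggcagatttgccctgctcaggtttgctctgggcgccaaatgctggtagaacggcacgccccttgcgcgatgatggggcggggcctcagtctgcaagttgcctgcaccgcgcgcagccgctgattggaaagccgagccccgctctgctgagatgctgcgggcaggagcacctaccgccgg
Psmb10: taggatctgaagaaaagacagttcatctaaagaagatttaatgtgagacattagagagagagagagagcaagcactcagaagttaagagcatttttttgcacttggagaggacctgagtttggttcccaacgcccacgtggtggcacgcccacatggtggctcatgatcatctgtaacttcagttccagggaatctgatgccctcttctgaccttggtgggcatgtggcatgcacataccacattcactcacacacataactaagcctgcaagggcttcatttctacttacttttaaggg
The capitals start at base -47 in Psmb5, -9 in Psmb6 and -97 in Psmb8, counted from the start site.

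Of the 53 genes, 45 had a promoter in the RefSeq table, with 52 promoters in all, and each motif was searched on both strands. A gene was counted if any of its promoters held the motif. TGACNNNGC was present in 7 of the 45 (15.6%), namely Psmb5, Psmb6, Psmc6, Psmd12, Adrm1, Psmd9 and Psme4, against 14.0% of 27025 genes with a promoter. The interferon-stimulated response element core, GAAA and GAAA with NN between them, was present in 5 (11.1%), namely Psmb3, Psmd4, Psmd9, Psme1 and Psmg4, against 3.99% of genes. TTCNNNGAA was present in 3 (6.67%), Psmb8, Psmd2 and Psmg1, against 9.55% of genes, and the GC box GGGCGG, which is not capitalised above, in 26 (57.8%) against 38.2%. The heat shock element, GAA, TTC and GAA with NN between each, was found in none of the 45 and in 0.662% of genes. TTCNNNGAA and GGGCGG were chosen after the promoters had been viewed, and every match is a description of letters in this window.

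None of the 7 alpha-ring subunits passed the test. Psma6 was at 70.0, 75.1 and 78.3 CPM in control replicates 1, 2 and 3 and at 57.5, 61.1 and 67.8 CPM in aging replicates 2, 3 and 5. Its groups did not overlap, with a log2 fold change of -0.26 ± 0.09 (SE, n = 3 per group) and an edgeR adjusted p of 0.0990. Without aging replicate 5 it passed, at -0.33 with an adjusted p of 0.0392. Psma5 and Psma2 were also lower in every aging library than in every control library, at -0.23 ± 0.08 and -0.17 ± 0.08 with edgeR adjusted p of 0.113 and 0.181. The other 4, Psma1, Psma3, Psma4 and Psma7, lay between -0.01 and 0.14 with overlapping groups.

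None of the 7 constitutive beta-ring subunits passed the test either. Psmb5, which carries the chymotrypsin-like activity, was at 23.9, 18.6 and 21.4 CPM in control and 19.5, 25.9 and 23.1 CPM in aging libraries, which overlapped, and its interval ran from -0.23 to 0.43. Psmb6, with the caspase-like activity, was at 39.0, 37.1 and 35.5 CPM in control and 30.6, 31.1 and 38.4 CPM in aging libraries, with an interval from -0.42 to 0.10. Psmb7, with the trypsin-like activity, was at 48.5, 48.7 and 47.2 CPM in control and 41.0, 46.1 and 47.4 CPM in aging libraries, with an interval from -0.30 to 0.09. The groups of both genes overlapped through aging replicate 5. Psmb2, a subunit with no active site, did not overlap between the groups, with a log2 fold change of -0.15 ± 0.07 and an edgeR adjusted p of 0.196. Psmb1, Psmb3 and Psmb4 lay between -0.11 and -0.01.

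The immunoproteasome subunits were set apart by 1 library. Psmb8 was at 54.3, 51.5 and 50.4 CPM in control and at 51.6, 59.0 and 39.5 CPM in aging replicates 2, 3 and 5. Psmb9 was at 28.8, 25.8 and 23.1 CPM in control and at 28.3, 28.8 and 16.4 CPM in aging libraries. Psmb10 was at 46.5, 43.0 and 41.2 CPM in control and at 44.1, 45.1 and 33.8 CPM in aging libraries. For all 3 genes, aging replicate 5 was the lowest library, and the other aging libraries overlapped the control range or lay above it. None passed the test, with log2 fold changes of -0.06 ± 0.14, -0.08 ± 0.22 and -0.09 ± 0.12. Without aging replicate 5 these became 0.09, 0.14 and 0.04, and again none passed in edgeR, with adjusted p of 0.540, 0.450 and 0.809.

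Summed over the 3 genes, the level in aging replicate 5 was 73.8% of the control mean, against 102% and 109% in aging replicates 2 and 3. The constitutive core in the same library was at 98.0%. The 3 genes varied more within groups than the core did, with a median SD of log2 CPM of 0.21 against 0.07. Psmb8 and Psmb9 neighbour Tap1 and Tap2, which encode the peptide transporter of MHC class I loading, in the gene order H2-DMb1, Psmb9, Tap1, Psmb8 and Tap2 of the GENCODE M21 annotation, on chromosome 17, whereas Psmb10 is on chromosome 8. Tap1 was also lowest in aging replicate 5, at 42.4 CPM against 62.7 to 84.0 CPM in the others. Tap2, at 99.2 CPM, and Nlrc5, the activator of MHC class I genes, at 52.6 CPM, were not lowest there. Of the markers of other cells, those of macrophages summed to 836 CPM in aging replicate 5 against 1194 to 2042 CPM in the others. Those of T and NK cells summed to 18.3 CPM there against 22.7 to 61.5 CPM, but the list was not uniform. Nkg7, Klrb1c and Cd4 were lowest in aging replicate 5, while Cd3d, Cd3e, Cd3g, Cd8a and Ncr1 were not. Cd8a was at 3.72 CPM there and at 0.567 to 1.85 CPM in control libraries.

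**Figure D3:**
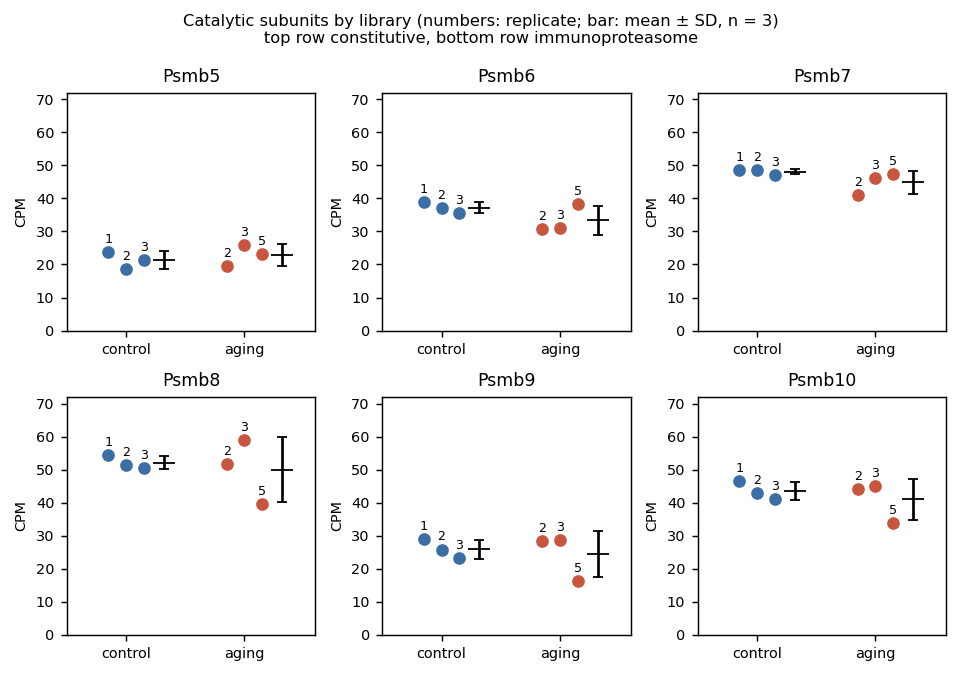
CPM of the 3 constitutive catalytic subunits and their immunoproteasome counterparts in each library, with the mean and SD of each group of 3. Aging replicate 5 is the lowest library for Psmb8, Psmb9 and Psmb10 and for none of Psmb5, Psmb6 and Psmb7.

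The balance between the forms was described for RNA only, as the FPKM ratio of each immunoproteasome subunit to the constitutive subunit it replaces. The proteins built into proteasomes were not measured. Psmb8 to Psmb5 was 2.15 ± 0.242 in control and 1.86 ± 0.362 in aging (SD, n = 3 each; two-sided exact permutation p = 0.4). Psmb9 to Psmb6 was 0.438 ± 0.0350 in control and 0.477 ± 0.166 in aging (exact p = 1). Psmb10 to Psmb7 was 0.801 ± 0.0424 in control and 0.817 ± 0.166 in aging (exact p = 1). Adjusted over the 3 pairs, each exact p was 1, and 3 libraries against 3 cannot give a p below 0.1. Aging replicate 5 had the lowest ratio in all 3 pairs, at 1.47, 0.286 and 0.631. In every library the Psmb8 ratio was above 1 and the Psmb9 and Psmb10 ratios below 1.

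The cap holds the 1 structural subunit that changed. Psmd3 (ENSMUSG00000017221), a scaffold subunit of the lid encoded between Gsdma and Csf3 on chromosome 11, was at 107, 105 and 103 CPM in control and at 75.9, 88.7 and 85.2 CPM in aging replicates 2, 3 and 5. Every aging library was below every control library. Psmd3 fell from 105 ± 1.99 to 83.3 ± 6.62 CPM (SD, n = 3 each), a log2 fold change of -0.34 ± 0.08 with an edgeR adjusted p of 0.0392. The call held without aging replicate 5, at an adjusted p of 0.0361, and was lost without any 1 of the other 5 libraries, where the adjusted p ran from 0.0569 to 0.135.

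The other 7 lid subunits among the 53 genes did not follow Psmd3. Psmd14, the enzyme that cuts ubiquitin chains from the substrate, was at 45.3, 44.3 and 46.3 CPM in control and 39.1, 43.1 and 43.9 CPM in aging libraries. Its groups did not overlap, yet its log2 fold change was -0.11 ± 0.08 with an edgeR adjusted p of 0.403. The other 6, Psmd6, Psmd7, Psmd8, Psmd11, Psmd12 and Psmd13, lay between -0.06 and 0.08 with overlapping groups. Sem1, another lid subunit, is not taken by the symbol rule and was listed with the proteasome-associated genes. Sem1 was at 31.8, 24.6 and 30.7 CPM in control and 35.7, 37.2 and 37.7 CPM in aging libraries. Its groups did not overlap, which held for 38.0% of all tested genes. Its log2 fold change was 0.34 ± 0.11 (edgeR adjusted p = 0.0846), with an interval from 0.08 to 0.61, which is not within 1.5-fold. The difference between Psmd3 and the other lid subunits was not tested.

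Among the 6 ATPases of the base, Psmc4 had the largest absolute difference, at 47.4, 49.8 and 44.3 CPM in control and 46.6, 54.5 and 53.2 CPM in aging libraries, with a log2 fold change of 0.12 ± 0.09 (edgeR adjusted p = 0.395). Psmc1 was the next, at -0.09 ± 0.07, with groups that did not overlap and an edgeR adjusted p of 0.453. Psmc2, Psmc3, Psmc5 and Psmc6 lay between -0.05 and 0.08. The 4 subunits of the base that are not ATPases lay between -0.08 and -0.03 with overlapping groups. Of these, the ubiquitin receptor Psmd4 was at 56.7, 55.4 and 55.2 CPM in control and 53.4, 55.4 and 49.9 CPM in aging libraries, and Psmd2, a large scaffold subunit, had an interval from -0.23 to 0.11. Adrm1, the receptor that also recruits the deubiquitinase Uchl5, was at 43.4, 41.8 and 41.2 CPM in control and 36.9, 39.5 and 47.8 CPM in aging libraries.

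The library with the lowest core and cap sums differed from that of the immunoproteasome. Of the 32 core and cap subunits, aging replicate 2 held the lowest of the 6 values for 21 and the highest for 0. The share of all tested genes that were lowest in this library was not counted. The median deviation of log2 CPM from each gene's mean over the 6 libraries was -0.13 there for the core. It was -0.10 for the cap and -0.01 for all tested genes. Core and cap sums in aging replicate 2 were 90.9% and 91.4% of the control mean, while the other 2 aging libraries were between 96.4% and 102%. The neutrophil marker sum was highest in the same library, at 4291 CPM against 1543 and 1821 CPM in the other aging libraries. The macrophage marker sum was also highest there, at 2042 CPM, but the list was not uniform. Clec4f and Timd4 were highest in control replicate 1, at 491 and 46.8 CPM against 479 and 24.3 CPM in aging replicate 2. Timd4 was lower in every aging library than in every control library (edgeR adjusted p = 0.0510). The other listed macrophage markers were highest in aging replicate 2. The stellate cell sum was lowest there, by a small margin, at 23.4 CPM against 24.4 and 27.7 CPM in the other aging libraries. Control libraries had stellate cell sums of 44.5 to 55.2 CPM. Within that list, Lrat was lowest in aging replicate 3, and Reln and Col3a1 in aging replicate 5.

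**Figure D4:**
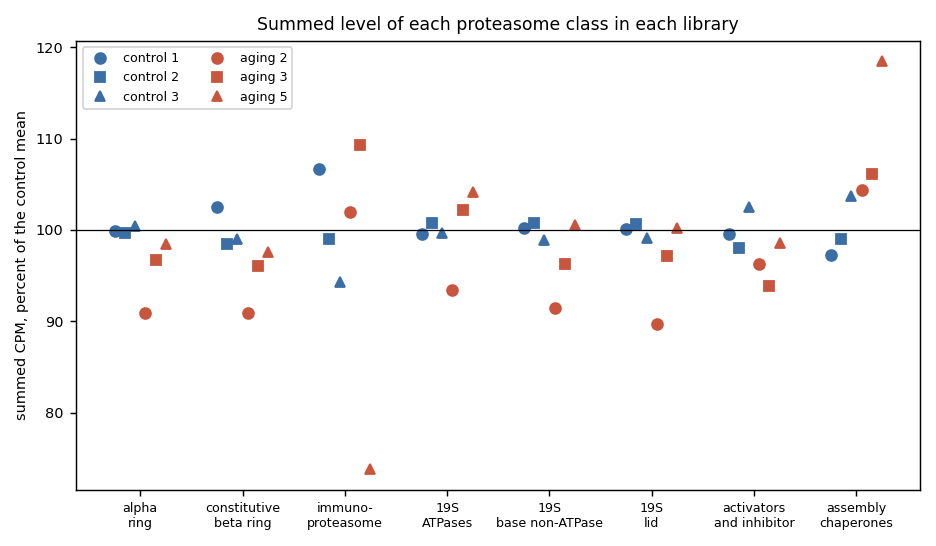
Summed CPM of each role group in each library (symbols), as a percent of the control mean, on an axis that does not start at 0. Core and cap sums were lowest in aging replicate 2, and the immunoproteasome sum was lowest in aging replicate 5 at 73.8%.

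Of the activators and the inhibitor, Psmf1 was the 1 that changed. Psmf1 (ENSMUSG00000032869), on chromosome 2, encodes PI31, which inhibits the core in vitro and is also described as an adaptor for moving proteasomes along neurites. It was at 28.2, 24.8 and 24.2 CPM in control and at 19.7, 20.2 and 18.7 CPM in aging libraries, and every aging library was below every control library. Psmf1 fell from 25.7 ± 2.14 to 19.5 ± 0.748 CPM (SD, n = 3 each), a log2 fold change of -0.40 ± 0.10 with an edgeR adjusted p of 0.0438. It missed the threshold in each of the 6 fits with a library removed, at edgeR adjusted p from 0.0632 to 0.133.

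The activators that open the core without the cap did not pass the test. Psme1, a subunit of the interferon-inducible activator PA28, was at 94.2, 91.5 and 91.5 CPM in control and 92.0, 92.6 and 87.5 CPM in aging libraries, with an interval from -0.19 to 0.14. Its partner Psme2 was at 43.9, 43.1 and 39.5 CPM in control and 40.8, 43.1 and 37.4 CPM in aging libraries, with an interval from -0.27 to 0.15. Both were lowest in aging replicate 5, as the immunoproteasome subunits were, by a smaller margin. Psme3, the nuclear form of PA28, had a log2 fold change of 0.17 ± 0.09 and Psme4, which encodes the activator PA200, one of -0.13 ± 0.09, with edgeR adjusted p of 0.268 and 0.390.

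The assembly chaperones were the class with the highest median among those of 3 or more genes, at 0.20, and none of the 8 passed the test. Pomp, which is built into the nascent core and is its first substrate, was at 61.3, 54.8 and 65.2 CPM in control and 65.1, 66.9 and 87.3 CPM in aging libraries, where aging replicate 5 stood above all others. Its log2 fold change was 0.28 ± 0.13 with an edgeR adjusted p of 0.198. Psmd10, or gankyrin, a chaperone of the base, was at 11.8, 10.5 and 10.9 CPM in control and 12.7, 13.8 and 13.9 CPM in aging libraries without overlap, at 0.28 ± 0.12 and an edgeR adjusted p of 0.156. Psmg3 and Psmg4, a pair that guides the alpha ring, had the largest differences of the class, at 0.43 ± 0.25 and 0.41 ± 0.20, on low counts, with 2.76 to 6.10 CPM in a library. Their edgeR adjusted p were 0.287 and 0.214, and the groups of Psmg4 did not overlap. The other 4, Psmg1, Psmg2, Psmd5 and Psmd9, lay between -0.09 and 0.13. Without aging replicate 5, the median of the class was 0.10.

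Nfe2l1 did not pass the test. It was at 337, 361 and 393 CPM in control and 337, 346 and 378 CPM in aging libraries. The groups overlapped over most of their range, with means of 363 ± 28.1 and 353 ± 21.5 CPM (SD, n = 3 each) and an interval of the log2 fold change from -0.26 to 0.18. NRF1 is known to be controlled largely at the level of its protein, which was not measured here. Of the remaining genes, Psma8 had a log2 fold change of 0.19 ± 0.33. Psme2b, a retrogene copy of Psme2 whose reads may be divided with its parent gene in counting, was at 3.10, 3.21 and 3.08 CPM in control and 4.66, 4.67 and 3.84 CPM in aging libraries, at 0.49 ± 0.19 and an edgeR adjusted p of 0.135. Psmc3ip, a recombination factor that matches by name and is no part of the proteasome, was below 1.3 CPM in every library, at 0.48 ± 0.54 and an edgeR adjusted p of 0.581.

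Of 39 tested genes around the proteasome, each counted once, 4 passed the test (10.3%, against 12.8% of all genes tested). All 4 were higher in aging, where 7.22% of all genes were, and none was lower. From 9 genes of NRF1 processing and its relatives, 2 rose. Nfe2l2 encodes NRF2, the relative of NRF1 that answers oxidative stress, and it was at 266, 276 and 287 CPM in control and 468, 453 and 617 CPM in aging libraries, without overlap. It rose by 0.89 ± 0.13 on the log2 scale, with an edgeR adjusted p of 0.00911. Syvn1, the ubiquitin ligase HRD1 of the endoplasmic reticulum, was at 39.9, 40.9 and 49.3 CPM in control and 69.3, 99.0 and 74.0 CPM in aging libraries, also without overlap. It rose by 0.90 ± 0.15, with an edgeR adjusted p of 0.0138. The call of Nfe2l2 was lost without control replicate 2, at an adjusted p of 0.0526, and that of Syvn1 without control replicate 1 or 2, at 0.0549 and 0.0684.

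Uba6, an enzyme that activates ubiquitin, was the 1 of 6 ubiquitin genes and activating enzymes that rose, by 0.63 ± 0.15 with an edgeR adjusted p of 0.0390. Zfand2a, or AIRAP, a stress-induced protein that associates with the cap, was the 1 of 11 tested proteasome-associated genes that rose, by 0.51 ± 0.12 with an edgeR adjusted p of 0.0373. Removing any control library or aging replicate 2 raised the adjusted p of Uba6 above the threshold, at adjusted p from 0.0518 to 0.129. Removing any control library or aging replicate 3 did the same for Zfand2a, at adjusted p from 0.0593 to 0.137. None of the 6 shuttle factors, which carry tagged proteins to the cap, passed, and Ubqln1 had the smallest p among them, at 0.26 ± 0.10 with an edgeR adjusted p of 0.125. None of the 8 genes of the immunoproteasome and peptide loading context passed, and Irf1, an interferon-induced activator of these genes, had the smallest p, at 0.71 ± 0.20 with an edgeR adjusted p of 0.0650. Irf1 was at 87.6 to 101 CPM in control and at 193, 153 and 107 CPM in aging replicates 2, 3 and 5.

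**Figure D5:**
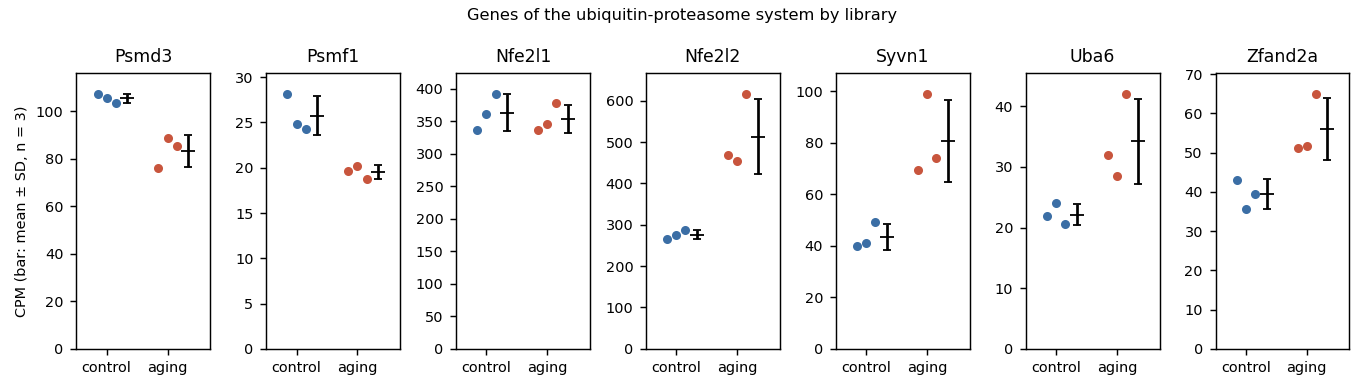
CPM by library, with the mean and SD of each group of 3, for the 2 proteasome genes that fell, for Nfe2l1, and for the 4 other pathway genes that rose. Nfe2l1 overlaps between the groups, while Nfe2l2 lies between 266 and 287 CPM in control and between 453 and 617 CPM in aging libraries.

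The authors' deposited table gives its own comparison, with an FDR under 0.05 for 4 of the 52 proteasome genes (7.69%) against 23.5% of all tested genes. In the authors' deposited table Psmd3 and Psmf1 are lower, at log2 fold changes of -0.28 and -0.29, and Psme2b and Psmg4 are higher, at 1.02 and 0.66. The aging mean in the authors' deposited table lies outside the range of its own 3 aging FPKM columns for 32 of the 52 proteasome genes (61.5%) and for 24.8% of all tested genes, at a tolerance of 0.01 FPKM. The control mean lies outside the range of its 3 columns for 10 of the 52 (19.2%) and for 18.2% of all tested genes. Psmf1 is 1 of the 10, with a control mean of 11.5 beside 11.9 to 13.1 FPKM. For Psmb8 the authors' deposited table gives an aging mean of 68.2 beside FPKM values from 36.4 to 55.0, and a log2 fold change of 0.36. The sources used here do not say how the authors' means were made, so the authors' fold changes are not set against those above.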

How the data were processed

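Per the labels' protocols, RNA was extracted with Trizol, selected on oligo(dT) beads and made into Illumina libraries. The submitters' processing notes name StringTie 1.3.1, RSEM, HISAT2, Bowtie2 and fastp 0.18.0 with no role or order; the sources used here do not give the build, annotation, strand setting or filters. Per the file headers, the deposited table holds a count and an FPKM value per gene and library; the counts are whole numbers. The authors' group means (used as a score without a stated unit), their log2 fold change and their p-value and FDR were also deposited, from a test not stated.

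Members were found by symbol, and the members and gene lists were chosen with earlier results of these data known. Counts were fitted with edgeR 4.0.16 in R 4.3.3: a filter on low counts (minimum 10, total 15), TMM scaling, robust quasi-likelihood F test with group as the only term and all 6 libraries, and Benjamini-Hochberg adjustment over all genes tested. CPM use the TMM-scaled library sizes, which makes them relative to the bulk of genes; ± on a log2 fold change is its standard error, and intervals are 95% intervals per gene, not adjusted. The TMM split was 946 genes higher and 732 lower, and 823 higher and 969 lower with upper-quartile factors. Level ratios used the authors' FPKM and an exact permutation test over 20 regroupings. Alternatives were DESeq2 1.42.0, other scalings, no filter, limma 3.58.1 on log2 FPKM, a replicate block and leaving out each library. No 2 libraries of a group agreed within counting noise (chi-square per degree of freedom from 8.40 to 54.5). Named genes were those past the threshold, the catalytic and immunoproteasome subunits, Psme1, Psme2, Pomp, Adrm1, Nfe2l1, and the 2 with the largest absolute difference in each class; of other pathway genes, those past the threshold or, failing any, the smallest p. Others are named only to account for every member or as neighbours of a named result, and Sem1 as a lid subunit outside the symbol rule. An item of the pathway lists is not reported here.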

Additional observations from a re-analysis of the deposited data

How the results depend on the processing

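No difference past the threshold changed sign under any alternative, and 41 to 52 of the 52 tested members kept their sign. DESeq2, RLE factors, upper-quartile factors and a fit without robust estimation kept both Psmd3 and Psmf1 past the threshold. Without the filter 1 member was lower, since Psmf1 had an adjusted p of 0.0549. On log2 FPKM, limma also called Psma2 (adjusted p 0.0418 with a pseudocount of 1 and 0.0417 with 0.1) and lost Zfand2a (0.0580 and 0.0551) and Uba6 (0.133 and 0.131). Leaving out each library gave 268 to 2121 changed genes, beside 1678, and 0 to 2 lower members: 0 in 5 settings, and Psmd3 and Psma6 without aging replicate 5. Leaving one out moved class medians to between -0.066 and -0.0080 for activators and inhibitor, 0.10 and 0.24 for assembly chaperones, and -0.13 and -0.041 for the constitutive beta ring. The immunoproteasome median was 0.09 without aging replicate 5. Upper-quartile factors gave medians of -0.11 for activators and inhibitor, 0.16 for chaperones and -0.079 for all members, with the median of all genes at -0.05. With limma, chaperones were at 0.12 in both and all members at -0.073 and -0.075. The cause of these moves was not tested.

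Both groups hold only the replicate numbers 2 and 3, and same-numbered libraries did not deviate together (correlations -0.06 and -0.04), so the numbers are not taken as pairs. With a replicate block, resting on 1 residual degree of freedom, 1698 genes were called and 0 members were lower (adjusted p 0.0857 for Psmd3 and 0.196 for Psmf1). Medians were 0.013 for activators and inhibitor and 0.11 for chaperones, the immunoproteasome median turned from -0.08 to 0.11 (Psmb8 0.11, Psmb9 0.22 and Psmb10 0.09, none past the threshold), and Uba6 had an adjusted p of 0.0679. For the ratios, CPM in place of FPKM and leaving out each library were added after the data had been seen: they gave log2 differences of -0.35 to -0.07 for Psmb8 to Psmb5, -0.12 to 0.39 for Psmb9 to Psmb6 and -0.11 to 0.18 for Psmb10 to Psmb7. Counts limit precision most for Psmg3, Psmg4, Psma8, Psme2b and Psmc3ip, and for Psmb11, which was not tested.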
